A study of Mus musculus with 14 samples.

Results

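Hypoxia-derived embryonic germ cell-like lines, called hiEGL, were set against embryonic stem cells (ESC) on mouse Illumina bead arrays. Arrays were chosen by their titles: hiEGL1 and hiEGL2 with 2 arrays each, and the male line ESCm and the female line ESCf with 2 arrays each, together 8 of the 14 arrays. The hiEGL cells are labelled as cultured in hypoxia and the ESC as not, and every sample carries the strain background C57BL; no transgene or drug is given for either. The titles and the study's design text name ESCm and ESCf as embryonic stem cells, while their cell type entry reads embryonic germ cells; the grouping here goes by title. A line called EG, embryonic germ cells grown without hypoxia (2 arrays), is given beside the results. Nothing in the labels says that the arrays of a line came from separate cultures, so the spread behind each p-value is that between arrays, which may be technical, and each line may be 1 isolate.

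Embryonic stem cells come from the early embryo before implantation. Embryonic germ cells are pluripotent lines made from primordial germ cells, the precursors of eggs and sperm. The study's title links hypoxia, the stabilisation of HIF1 alpha and Oct4 (Pou5f1) to pluripotency in primordial germ cells. In low oxygen HIF1 alpha escapes hydroxylation and degradation, pairs with Arnt and binds a short core motif in its target genes, many of which serve glycolysis, blood vessel growth and collagen processing.

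Values are normalized intensities on the log2 scale, and a difference is the mean of the hiEGL lines minus the mean of the ESC lines. Genes passing an adjusted p of 0.05 in limma (Benjamini-Hochberg over 9054 genes) were called. A probe was detected on an array when its detection p-value was under 0.01. Per-array values are listed in the order hiEGL1, hiEGL1, hiEGL2, hiEGL2, then EG, then ESCm, ESCm, ESCf, ESCf. Where all arrays of a group lacked detection, the fold is a lower bound, with that group set on each array to the higher of the lowest detected signal and its own value.

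The hiEGL and ESC arrays stood far apart as wholes. Between 29.9% and 32.9% of probes were detected on hiEGL arrays, against 38.7% to 41.8% on ESC arrays, and the brightest signal was 11270 to 17338 on hiEGL arrays and 40718 to 43341 on ESC arrays. Across the tested genes, each by its brightest probe, arrays correlated at r = 0.639 to 0.648 between hiEGL and ESC and at 0.843 to 0.845 between hiEGL and EG, compared with 0.972 to 0.973 between the ESC lines. With this background 84.2% of genes were called, 45.4% higher and 38.8% lower in hiEGL, and in 74.4% of genes the 4 hiEGL and 4 ESC arrays did not overlap. Among single probes 83.3% were called. At least 2-fold apart and called were 54.7% of genes, 31% higher and 23.7% lower. The median difference over all genes was 0.11. Counts of rises and falls in the gene lists below are to be read against the 45.4% higher and 38.8% lower among all genes. EG, which is not a hypoxia line, had 31.9% and 32.6% of probes detected, close to hiEGL. Between hiEGL and EG 61.8% of genes were called, 28.4% higher and 33.4% lower in hiEGL, and counts against EG below are to be read against these shares. Of all genes 14.9% were called and at least 2-fold higher than in EG, and 15.6% called and at least 2-fold lower. Of 2281 probes detected on all 4 ESC arrays and no hiEGL array, 1637 were on no EG array either. What sets these arrays apart and the cell types cannot be told apart from the labels, so differences from EG, measured on arrays with like detection, are given beside many of the results.

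Genes measured by several probes give a check within the arrays. Of 2083 genes with 2 or more probes detected on at least 2 of the 8 arrays, 406 (19.5%) had all probes higher in hiEGL with at least 2 called, 816 (39.2%) had all lower in this way, and 466 (22.4%) had probes called in opposite directions. Of the genes whose probes agreed, 66.8% were lower in hiEGL, while 53.9% of all called genes were higher by the brightest probe. The reference gene Gapdh, a glycolysis enzyme, differed by 0.02 and 0.03 on its 2 probes. Actb, cytoskeletal actin, ranged over its 5 probes between a difference of -7.53 and one of 3.13. Genes whose probes agree are therefore named first, and most values below are those of the brightest probe.

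**Figure D1:**
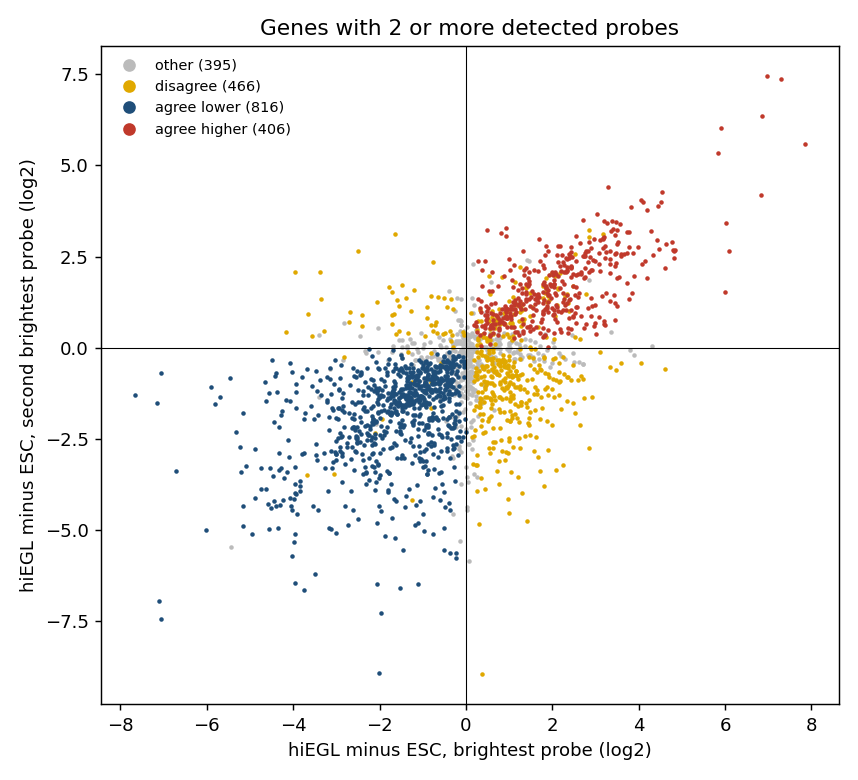
Log2 difference hiEGL minus ESC of the brightest probe (x axis) against the second brightest probe (y axis) of each of 2083 genes with 2 or more detected probes, coloured by whether all probes agreed. The 466 genes with probes called in opposite directions lie mostly to the lower right, with the brightest probe higher in hiEGL and the second probe lower.

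Pluripotency genes were mostly lower in hiEGL than in ESC. Of 14 tested core pluripotency genes 12 fell and 2 rose, where 38.8% of all genes fell and 45.4% rose, with a median difference of -1.86 against 0.11 over all genes. Pou5f1, which encodes the transcription factor Oct4, read 6.85, 6.83, 5.84 and 6.24 in hiEGL, 7.94 and 7.80 in EG, and 12.24, 12.48, 12.56 and 12.60 in ESC. It was detected on 3 of 4 hiEGL arrays and on all EG and ESC arrays. All hiEGL arrays lay below both EG arrays, which lay below all ESC arrays. The difference from ESC was -6.03 ± 0.09 (SE; limma adjusted p = 5.5e-12), that of its other probe -5.01, and the difference from EG -1.43 on the brighter probe and -0.28 on the other.

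Sox2, the partner of Oct4 on DNA, was detected on 1 of 4 hiEGL arrays and on all EG and ESC arrays; its values were 5.89, 5.55, 5.68 and 6.13 in hiEGL, 7.69 and 7.79 in EG, and 9.92, 9.92, 9.86 and 9.66 in ESC. All hiEGL values lay below all EG and ESC values, and the difference from ESC was -4.03 ± 0.20 (limma adjusted p = 1.8e-08), with -4.47 on a second probe. Tdgf1, the Nodal co-receptor Cripto, read 6.52, 6.72, 6.15 and 6.27 in hiEGL, 9.75 and 9.96 in EG, and 9.49, 9.69, 9.75 and 9.52 in ESC. It fell by 3.197 against ESC and fell by 3.44 against EG, with no overlap. Lin28a, an RNA-binding protein of stem cells, differed between the hiEGL lines, with 7.85, 7.80, 5.75 and 5.75 in hiEGL, 8.03 and 8.09 in EG and 10.67, 10.61, 9.93 and 10.12 in ESC; its difference from ESC was -3.54.

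Other core genes were measured by a single detected probe. Nanog, a homeobox factor of the naive state, gave 10.53, 10.34, 10.53 and 10.38 in hiEGL, 11.55 and 11.63 in EG, and 12.02, 11.96, 12.13 and 12.07 in ESC. The hiEGL arrays lay below every EG and ESC array, and the difference from ESC was -1.60 ± 0.07 (limma adjusted p = 3.9e-09). Utf1 and L1td1, both restricted to undifferentiated cells, differed by -1.96 and -1.44 from ESC. Gdf3, a TGF-beta family ligand, differed by -1.43 from ESC and -1.77 from EG. Sall4, a zinc finger factor, had probes called in opposite directions: its brightest probe was higher in hiEGL by 0.26 and its other 2 probes, undetected in hiEGL, were lower. The brightest probe differed by -0.16 under median scaling, the mean of its probes was -1.89, and the call was lost with the line as a random block and without hiEGL1 or ESCf. Utf1, L1td1, Gdf3 and Sall4 were chosen after their values were seen.

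Naive pluripotency genes, which mark the state before implantation, were also lower, with 16 of 17 genes lower (94.1%, against 38.8% of all genes), 1 higher and a median of -1.44. Against EG 13 were lower and 2 higher, where 33.4% of all genes were lower and 28.4% higher. Jam2, a junction adhesion molecule, was detected on no hiEGL array and on all EG and ESC arrays, so that it was at least 19.4-fold lower. Manba, a lysosomal mannosidase used as a naive marker, read 8.91, 8.72, 8.46 and 8.56 in hiEGL, 12.49 and 12.51 in EG, and 11.14, 11.22, 11.62 and 11.63 in ESC. It fell by 2.74 against ESC and fell by 3.84 against EG, with no overlap in either comparison.

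Klf2, a Kruppel-like factor of the naive network, had 7.74, 8.02, 8.79 and 8.67 in hiEGL, 10.14 and 10.19 in EG, and 11.49, 11.35, 11.40 and 11.53 in ESC and fell by 3.14. Klf4 of the same family overlapped between groups, at 8.41, 8.56, 9.85 and 9.58 in hiEGL, 10.70 and 10.70 in EG, and 9.9998, 9.99, 9.72 and 9.55 in ESC. Its hiEGL1 arrays lay below all ESC arrays while hiEGL2 did not, and the difference was -0.71 ± 0.08 (limma adjusted p = 1.3e-05); without hiEGL1 it was -0.10 and not called, and it was not called with the line as a random block. Esrrb, an orphan nuclear receptor, was detected on all arrays: 11.52, 11.53, 11.37 and 11.38 in hiEGL, 13.75 and 13.69 in EG, and 11.86, 12.03, 11.87 and 11.94 in ESC. Its difference from ESC was -0.48, against -2.27 from EG.

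Zfp42 (Rex1), a marker of ground state cells, was undetected on all 4 hiEGL arrays and detected on all EG and ESC arrays. It was at least 7.73-fold lower in hiEGL than in ESC. Dppa5a, an RNA-binding protein abundant in stem cells, read 13.06, 13.02, 12.33 and 12.30 in hiEGL, 14.27 and 14.35 in EG, and 14.51, 14.31, 14.38 and 14.37 in ESC. It differed by -1.72 on this probe and by -4.69 on its other probe.

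Genes of the primed epiblast, the stage after implantation, were also mostly lower. Of 15 tested, 10 fell (66.7%, against 38.8% of all genes) and 1 rose, with a median of -0.82. Lefty1, a secreted Nodal inhibitor, read 6.96, 6.94, 6.65 and 6.69 in hiEGL, 9.07 and 9.17 in EG, and 10.24, 10.29, 10.85 and 10.88 in ESC, and fell by 3.75. Lefty2 was undetected in hiEGL and at least 19.3-fold lower than in ESC, and Nodal itself was undetected in hiEGL and EG and at least 4.3-fold lower than in ESC. Eomes, a T-box factor, was on all ESC arrays only, with a bound of 1.01-fold.

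**Figure D2:**
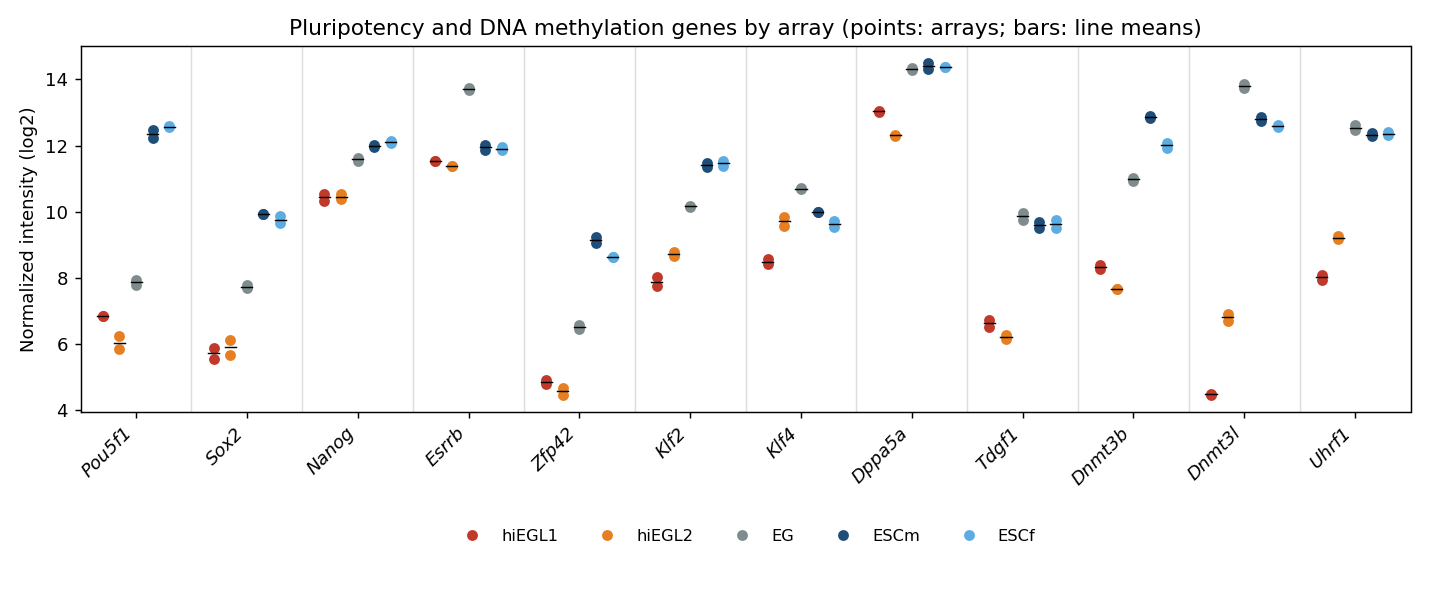
Normalized log2 intensity (y axis) of pluripotency and DNA methylation genes on each hiEGL, EG and ESC array; points are arrays and bars line means. The hiEGL points of Pou5f1, Sox2, Zfp42 and Dnmt3l lie well below the ESC points, Esrrb and Dppa5a differ less, and Klf4 and Dnmt3l differ between hiEGL1 and hiEGL2.

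Of 10 tested genes of DNA methylation 6 fell (60%) and 3 rose (30%), where 38.8% of all genes fell and 45.4% rose. Their median was -2.83, -2.16 with undetected groups at their bounds, and -0.07 over all 13 with a probe. Dnmt3l, the cofactor of de novo methyltransferases in germ cells, had 4.46, 4.50, 6.90 and 6.70 in hiEGL, 13.85 and 13.74 in EG, and 12.86, 12.75, 12.61 and 12.57 in ESC. Both hiEGL1 arrays were undetected and both hiEGL2 arrays detected, and no hiEGL array reached any EG or ESC array. It fell by 7.06 against ESC (limma adjusted p = 3.5e-13) and fell by 8.15 against EG. Dnmt3b, a de novo methyltransferase, read 8.40, 8.26, 7.66 and 7.66 in hiEGL, 11.01 and 10.94 in EG, and 12.88, 12.84, 11.91 and 12.09 in ESC, with differences of -4.44 from ESC and -2.98 from EG. Uhrf1, which recruits the maintenance methyltransferase to replicated DNA, gave 7.94, 8.08, 9.25 and 9.17 in hiEGL, 12.63 and 12.46 in EG, and 12.29, 12.38, 12.32 and 12.40 in ESC. It differed by -3.74 from ESC and by -3.94 from EG, without overlap. Gadd45a, a stress-induced factor linked to demethylation, fell by 3.95 against ESC.

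Chromatin regulators of the polycomb and remodelling list fell in 18 of 23 genes (78.3%, against 38.8% of all genes) and rose in 5. Their median was -1.87, and against EG 14 fell and 3 rose, where 33.4% of all genes fell and 28.4% rose. Ezh2, the polycomb methyltransferase, was undetected on all hiEGL and EG arrays and read 10.74, 10.71, 10.04 and 10.25 in ESC, at least 22.5-fold lower in hiEGL. Smarcc1, a BAF remodelling subunit, Aebp2, a polycomb cofactor, and Chd1, a chromatin remodeler, were likewise undetected in hiEGL and EG, with bounds of 8.2-fold, 2.29-fold and 1.64-fold. For these 4 genes no fold between hiEGL and EG is given, since both were below background.

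Against ESC germ cell genes rose and fell at shares near those of all genes (45.4% higher, 38.8% lower). In the early germ cell list 5 of 11 tested genes rose (45.5%) and 4 fell (36.4%), with a median of 0.20. Against EG 7 rose and 1 fell, where 28.4% of all genes rose and 33.4% fell. Dnd1, an RNA-binding protein needed for germ cell survival, read 9.79, 9.9998, 9.77 and 9.65 in hiEGL, 7.17 and 7.41 in EG, and 6.84, 6.93, 5.80 and 6.28 in ESC. It rose by 3.34 against ESC and by 2.51 against EG. Dppa3 (Stella) had 6.85, 6.64, 7.74 and 7.81 in hiEGL, 4.96 and 4.92 in EG, and 9.43, 9.27, 8.61 and 8.65 in ESC, with a difference of -1.73 from ESC, and was undetected on the EG arrays.

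Nanos3, a germ cell RNA-binding protein, was detected in hiEGL1 and ESCm only, with 6.66, 6.56, 4.57 and 4.62 in hiEGL and 6.43, 6.07, 4.59 and 4.53 in ESC. The groups overlapped and the difference was 0.20 ± 0.12 (limma adjusted p = 0.17, not called). Without hiEGL1 it was -0.81 and without ESCf -0.65. Elf3, an epithelial ETS factor of the early germ cell list, fell by 0.65 with agreeing probes. Tfap2c, a specification factor of primordial germ cells, had probes that disagreed: differences of 2.35 and -1.45 were called and its other probe was not called. Prdm1, the germ cell repressor Blimp1, was detected on no hiEGL, EG or ESC array.

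In the later germline list 5 of 10 genes rose (50%) and 4 fell (40%), near the 45.4% and 38.8% of all genes. Dazl, a translational regulator of germ cells, was undetected in hiEGL and detected in EG and ESC, at least 1.23-fold lower than in ESC. Stra8, which gates entry into meiosis, was also undetected in hiEGL and at least 3.02-fold lower. Nanos2, a male germ cell RNA-binding protein, was on 3 hiEGL arrays and no EG or ESC array, at least 1.69-fold higher. Rec8, a meiotic cohesin, rose by 2.64 against ESC and differed by 0.01 from EG. Of 7 genes of the two-cell-like state with a probe 3 were tested, each undetected in hiEGL and seen in ESC. The median was -3.14 over these and -0.17 over all with a probe. Zscan4c and Tcstv3 were undetected in hiEGL and at least 7.9-fold and 3.39-fold lower than in ESC, where ESCf had the higher values (7.59, 7.69, 10.38 and 10.04 for Zscan4c). The bound of Tcstv1 was 1.5-fold.

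Extracellular matrix genes rose more often than the 45.4% of all genes that did. Of 11 collagen genes 9 rose and 0 fell (median 3.40), as did 13 of 20 matrix glycoproteins with 3 falling (median 1.40), and 12 of 13 matrix proteases with 0 falling (median 2.40). Genes seen in 1 group alone pass the detection filter through that group, which limits what these counts show. Over all genes with a probe, detected or not, the medians of the 3 lists were 1.86, 0.64 and 1.44. Against EG the same 3 lists rose in 10, 15 and 10 genes, where 28.4% of all genes rose. Col6a1, a collagen VI chain, read 12.21, 12.24, 12.21 and 12.20 in hiEGL, 7.25 and 7.31 in EG, and 5.27, 5.26, 5.29 and 5.14 in ESC. The 4 hiEGL arrays were far above every other array, with a difference of 6.97 ± 0.24 from ESC (limma adjusted p = 8.9e-10) and 4.93 from EG. Col4a2 and Col4a1 of basement membranes, Col5a1 and Col16a1 had single probes and rose by 4.54, 4.07, 4.10 and 4.27.

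The largest rises among genes with agreeing probes, detected on all 8 arrays, were led by Ecm1, Tgfbi and Dcn. Ecm1, a secreted matrix protein, had 12.06, 11.98, 12.01 and 11.98 in hiEGL, 7.39 and 7.20 in EG, and 6.06, 5.74, 6.03 and 6.20 in ESC. It rose by 5.999 ± 0.30 (limma adjusted p = 1.5e-08). Tgfbi, an integrin-binding protein induced by TGF-beta, read 10.86, 10.82, 10.97 and 11.07 in hiEGL, 6.33 and 6.39 in EG, and 5.81, 5.85, 6.47 and 6.28 in ESC, a difference of 4.83. Dcn (decorin), a collagen-binding proteoglycan, read 10.99, 10.99, 11.22 and 11.28 in hiEGL, 5.55 and 5.44 in EG, and 6.33, 5.87, 6.67 and 6.30 in ESC, a difference of 4.82; both EG arrays lacked detection.

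The next in that order were Capg, an actin-capping protein, with 4.80, Bmp1, a procollagen protease, with 4.77, Pdzrn3, a ubiquitin ligase, with 4.63, and Rin2, a Rab5 regulator, with 4.48. Cavin3, a caveolar coat protein, Rab11fip5, a recycling endosome protein, and Plekhg2 followed with 4.14, 4.11 and 4.04. Against EG these genes other than Dcn, which EG lacked, differed by between 0.72 (Rab11fip5) and 4.71 (Ecm1).

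Among genes with agreeing probes detected on all hiEGL arrays and no ESC array, the 6 largest bounds were these. Medag, an adipogenesis factor, was at least 110.3-fold higher, with 11.85, 11.83, 12.06 and 11.98 in hiEGL. The water channel Aqp1 was at least 68.7-fold higher, Ogn (mimecan, a matrix proteoglycan) 53.1-fold, the endothelin receptor Ednrb 43.4-fold, Rassf4 42.9-fold and Tnfaip2, a TNF-induced protein, 16.2-fold. Ednrb and Tnfaip2 were undetected in EG too, while Medag, Aqp1, Ogn and Rassf4 were detected on both EG arrays at lower levels.

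Proteases and their inhibitors rose together. Mmp2, a gelatinase, read 13.74, 13.72, 13.57 and 13.57 in hiEGL, 9.13 and 9.08 in EG, and 6.17, 6.29, 6.39 and 6.48 in ESC with a difference of 7.32. Mmp9 and Mmp3 rose by 4.68 and 3.18, and the inhibitors Timp1 and Timp2 by 2.12 and 4.41. Fbln2, a fibulin, rose by 3.45. Among insulin-like growth factor binding proteins 4 of 6 rose and 2 fell, where 45.4% of all genes rose and 38.8% fell. Igfbp4 read 12.94, 12.84, 13.41 and 13.47 in hiEGL, 7.25 and 7.39 in EG and 5.05, 5.25, 5.26 and 5.69 in ESC, a rise of 7.85, and Igfbp7 and Igfbp6 rose too, Igfbp6 at least 4.43-fold. Igfbp2 went the other way, with 6.89, 7.06, 6.99 and 7.01 in hiEGL, 9.44 and 9.55 in EG, and 9.90, 10.03, 11.01 and 10.97 in ESC.

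Mesenchymal genes rose in 15 of 17 cases (88.2%, against 45.4% of all genes) and fell in 1. Their median was 1.45 against ESC and 1.46 against EG. Zeb1, a repressor of epithelial genes, rose by 2.55, Cd44, a hyaluronan receptor, by 2.81, and Anxa2, a membrane-binding annexin, by 3.61. Twist2, a mesenchymal helix-loop-helix factor, was at least 6.77-fold higher. Of 15 epithelial junction genes 7 were higher and 7 lower (46.7% each), beside 45.4% and 38.8% of all genes. Cdh1 (E-cadherin) read 8.45, 8.41, 8.48 and 8.12 in hiEGL, 10.01 and 10.05 in EG, and 10.74, 10.72, 10.31 and 10.44 in ESC and fell by 2.19. Cldn4, a claudin, fell by 4.21. Dsg2, a desmosomal cadherin, and Grhl2, an epithelial transcription factor, were undetected in hiEGL and EG and at least 1.36-fold and 3.92-fold lower than in ESC.

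HOX genes, which pattern the body axis and are held silent in pluripotent cells, were tested in 13 of 38 cases with a probe, the others not passing the detection filter. Genes seen in 1 group alone pass through that group, so a count of rises among them shows little. The median was 1.84 over the tested genes, 1.39 with undetected groups at their bounds and 0.35 over all with a probe. Hoxa5 was at least 47.4-fold higher, with 10.45, 10.39, 10.95 and 11.06 in hiEGL and no detection in EG or ESC. Hoxc6, Hoxc9 and Hoxa2 were at least 17.3-fold, 5.67-fold and 3.34-fold higher.

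Imprinted genes are expressed from 1 parental allele. Of 15 tested, 7 rose (46.7%) and 6 fell (40%), near the 45.4% and 38.8% of all genes. Dlk1, a Notch-like imprinted protein, read 11.93, 11.66, 12.45 and 12.49 in hiEGL, 4.52 and 4.45 in EG, and 5.47, 5.29, 6.69 and 6.53 in ESC. It rose by 6.14 against ESC and was undetected in EG. Igf2, a fetal growth factor, read 14.11, 14.20, 14.17 and 14.18 in hiEGL, 9.15 and 9.32 in EG, and 9.67, 9.55, 9.85 and 9.95 in ESC and rose by 4.41. Cdkn1c (p57), an imprinted cell cycle inhibitor, read 13.65, 13.71, 14.09 and 14.08 in hiEGL, 8.22 and 8.23 in EG, and 9.28, 9.36, 8.24 and 8.65 in ESC, with no overlap and a rise of 4.995. Igf2r, the receptor that clears Igf2, rose by 3.79 with both probes higher. Snrpn, a small nuclear ribonucleoprotein, read 11.67, 11.63, 10.59 and 10.60 in hiEGL, 11.69 and 11.60 in EG, and 11.63, 11.64, 12.07 and 12.07 in ESC. The groups overlapped, hiEGL2 lay below hiEGL1, and the difference from ESC was -0.73; it was not called with the line as a random block or without hiEGL2. Gnas, a G protein subunit, was undetected in hiEGL and EG and at least 2.24-fold lower than in ESC. H19 was not tested here.

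**Figure D3:**
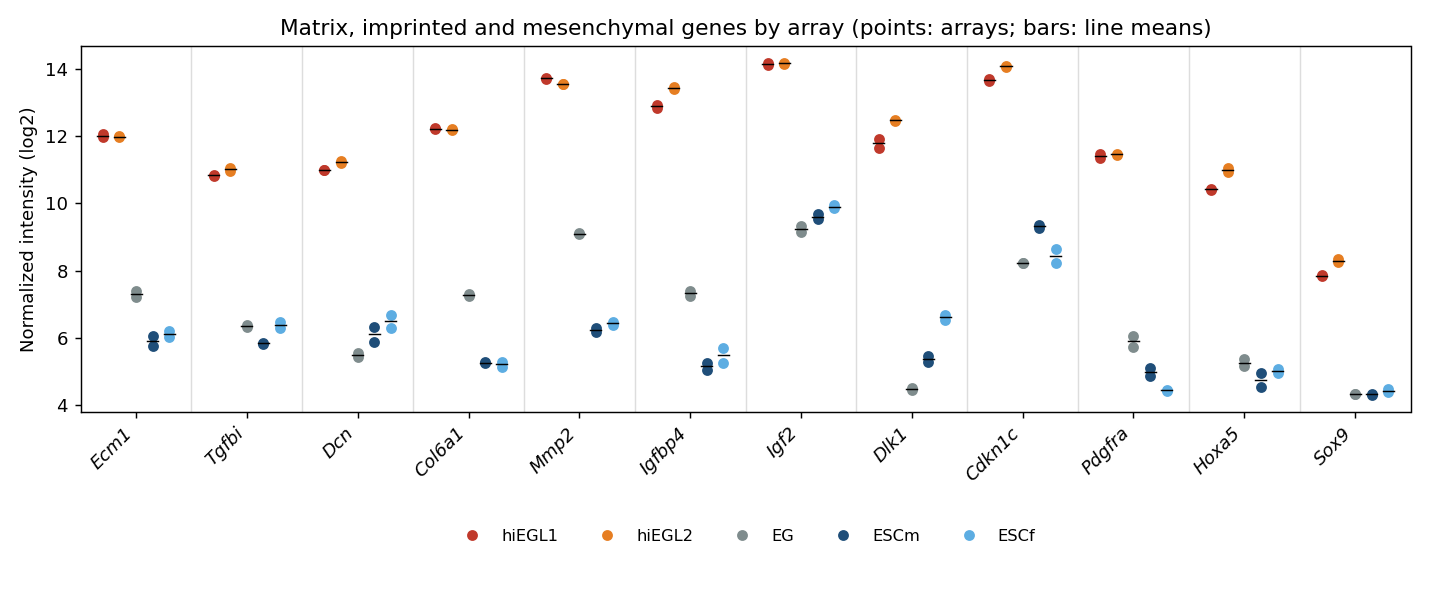
Normalized log2 intensity (y axis) of matrix, imprinted, HOX and mesenchymal genes on each hiEGL, EG and ESC array; points are arrays and bars line means. All hiEGL points lie above all EG and ESC points for each gene shown.

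Markers of other cell types were measured in the same arrays. In bulk samples, fewer cells of a type and less RNA per cell cannot be told apart. Of 21 fibroblast and feeder markers with a probe 19 were tested, 17 rose and 0 fell, where 45.4% of all genes rose and 38.8% fell. The summed intensity of the tested markers on the linear scale was 44798 to 50319.6 in hiEGL, 9726 to 9947 in EG and 3993 to 5407 in ESC. Of the 8 defining fibroblast markers 6 were on all 4 hiEGL arrays, and 4 of these 6 (Col1a1, Col3a1, Dcn and Thy1) were also on all 4 ESC arrays. Col1a2 and Pdgfrb were on no ESC array. Postn was on no hiEGL, EG or ESC array, and Lum was on 2 hiEGL arrays. Spon2, a secreted matrix protein, rose by 8.16. Most genes of the fibroblast and feeder list also belong to lists given above, such as Col1a1 to the collagens and Dcn and Spon2 to the matrix glycoproteins. The sums and counts therefore share members with the matrix and mesenchymal results and are not separate from them. The part of fibroblasts or feeders in the matrix, mesenchymal and HOX results was not tested.

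Of 14 gonadal somatic markers with a probe 4 were tested, and they summed to 3181 to 3705 in hiEGL, 117 to 135 in EG and 109.6 to 145 in ESC. Pdgfra, a growth factor receptor of many mesenchymal cells that is also on the endoderm and trophectoderm list, rose by 6.73 and made up 79.7% of that sum in hiEGL. Sox9, a Sertoli cell factor, was on all hiEGL arrays and no EG or ESC array, at least 7.62-fold higher, and Wt1 rose by 3.004. Cyp11a1, a steroid synthesis enzyme, was on 2 ESC arrays and no hiEGL or EG array, and no fold is given. Nr5a1, Gata4, Amh, Star and Foxl2 were detected on no array of these groups. Blood and endothelial markers summed to 815 to 917 in hiEGL, 396 to 402 in EG and 207 to 239.7 in ESC; Cd34, Cdh5 and Kdr were at least 5.55-fold, 2.71-fold and 2.14-fold higher, while Ptprc, Tyrobp and Hba-a1 were undetected. Lyz2, a lysozyme of myeloid cells, had probes that disagreed, with a rise of 2.16 on 1 probe and a second probe on 2 ESC arrays only. Endoderm and trophectoderm markers summed to 8361 to 10419 in hiEGL, 2420.4 to 2428 in EG and 1321 to 1554 in ESC. Pdgfra made up 29.5% of that sum in hiEGL. Of 16 tested, 12 rose and 2 fell, where 45.4% of all genes rose and 38.8% fell. The median of the list was 1.83 over the tested genes and 1.39 over all with a probe. Dab2, an endocytic adaptor, rose by 3.72, and Tfap2a was at least 6.98-fold higher. Of the defining markers Gata6, Afp and Cdx2 were on all 4 hiEGL arrays and no EG array. Gata6 and Cdx2 were also on all 4 ESC arrays, and Afp was on no ESC array. Sox7 was on 1 hiEGL and 3 ESC arrays, and Gata3 on 0 hiEGL and 3 ESC arrays. Sox17 was on 1 hiEGL array only, and Elf5 on no array of these groups. Of neural markers Olig1 was undetected in hiEGL and at least 7.19-fold lower, and Nes (nestin) was on all ESC arrays only, with no fold given. The part of these cells in the results was not tested.

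Antigen presentation and interferon genes rose in 15 of 16 cases (93.8%, against 45.4% of all genes) and fell in 1. B2m, the class I light chain, rose by 2.01, Ifi27 by 5.90 and H2-T23 by 0.80, and Ifit2 was at least 2.37-fold higher. Against EG the differences were 0.75 (not called), 1.01, 1.85 and 0.63. H2-T23 was not called with the line as a random block or without ESCm. Lysosomal genes rose in 16 of 22 cases (72.7%, against 45.4% of all genes) and fell in 3. Against EG 14 rose and 2 fell, where 28.4% of all genes rose and 33.4% fell. Psap, a sphingolipid activator precursor, rose by 2.86 against ESC, and Gaa, an acid glucosidase, by 2.27. Lamp2, a lysosomal membrane protein, rose by 3.18 on its brightest probe and had 1 of 4 probes lower, and Laptm5 read 9.72, 9.67, 8.53 and 8.41 in hiEGL, 14.14 and 14.13 in EG, and 10.92, 10.83, 11.51 and 11.53 in ESC, a difference of -2.12 from ESC.

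Targets of HIF are shown first by sequence, with 4 that held the core motif ACGTG in the RefSeq promoter table (GRCm38.p6, from 250 bases before to 50 after each gene's start). The motif was searched on both strands; its letters are in capitals, and a motif printed CACGT is ACGTG read on the other strand. P4ha1 and P4ha2, subunits of the collagen prolyl hydroxylase, were chosen after their values were seen.
Car9: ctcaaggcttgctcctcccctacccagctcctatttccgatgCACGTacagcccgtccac
P4ha1: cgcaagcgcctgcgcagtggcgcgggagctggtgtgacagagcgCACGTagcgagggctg
P4ha2: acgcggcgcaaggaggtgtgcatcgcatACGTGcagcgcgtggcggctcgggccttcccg
Egln3: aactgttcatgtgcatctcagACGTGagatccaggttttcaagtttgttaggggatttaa

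The stretches are chr4:43506966-43507025 on the plus strand, chr10:59323236-59323295 on the plus strand, chr11:54100818-54100877 on the plus strand and chr12:54204065-54204124 on the minus strand, in the order listed. ACGTG occurred in 19.6% of all 32851 promoter windows listed, and the windows of 21 tested HIF targets outside glycolysis held it in 15 of 30 cases. The genes shown all rose. Targets called at least 2-fold higher held the motif in 5 of 9 windows (55.6%), and the other tested targets in 10 of 21 windows (47.6%). A match is a description of these letters only and shows no binding.

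Of 30 tested HIF targets outside glycolysis 18 rose and 7 fell, where 45.4% of all genes rose and 38.8% fell. Their median was 0.81 against ESC and 0.53 against EG. Glycolytic targets such as Ldha, Slc2a1 and Eno2, with Pdk1, are counted in the glycolysis list below. Car9, a membrane carbonic anhydrase that extrudes acid, read 8.96, 8.84, 10.19 and 10.24 in hiEGL, 4.94 and 5.36 in EG, and 4.46, 4.79, 4.49 and 4.46 in ESC. It was on all 4 hiEGL arrays and no EG or ESC array, hence at least 21.3-fold higher than in ESC. P4ha1 was at least 12.1-fold higher, and P4ha2 read 10.59, 10.70, 11.80 and 11.45 in hiEGL, 7.78 and 7.63 in EG and 5.50, 5.67, 5.78 and 5.78 in ESC. Egln3, the oxygen sensor PHD3 that is itself a HIF target, had 10.45, 10.25, 9.83 and 9.85 in hiEGL, 8.71 and 8.67 in EG, and 8.21, 8.11, 6.72 and 7.34 in ESC and rose by 2.50 ± 0.12 (limma adjusted p = 1.4e-08).

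Vegfa, the vascular growth factor, read 10.52, 10.61, 11.41 and 11.43 in hiEGL, 8.99 and 9.02 in EG, and 7.04, 7.12, 8.35 and 8.42 in ESC. All hiEGL arrays lay above the others, with differences of 3.26 and 3.41 on its 2 probes. Ndrg1, a stress-responsive protein, read 10.36, 10.38, 10.95 and 11.01 in hiEGL, 8.27 and 8.19 in EG, and 7.50, 7.43, 7.88 and 7.74 in ESC and rose by 3.04, and 3.67 on its other probe. Kdm4b, a histone demethylase, rose by 2.78 against ESC and 0.58 against EG. Kdm3a, a demethylase of the same family, fell by 1.45.

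Some classic targets of the glycolysis list did not rise. Pdk1, which blocks pyruvate entry to mitochondria, overlapped between groups at 7.76, 7.80, 9.34 and 9.18 in hiEGL, 8.80 and 8.81 in EG, and 9.58, 9.60, 8.23 and 8.25 in ESC. Its difference of -0.39 turned to 0.34 without hiEGL1 and 0.28 without ESCm, and was not called with the line as a random block. Ldha, lactate dehydrogenase, fell by 1.31 against ESC. Slc2a1, the glucose transporter GLUT1, differed by -0.43 from ESC and 0.28 from EG.

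**Figure D4:**
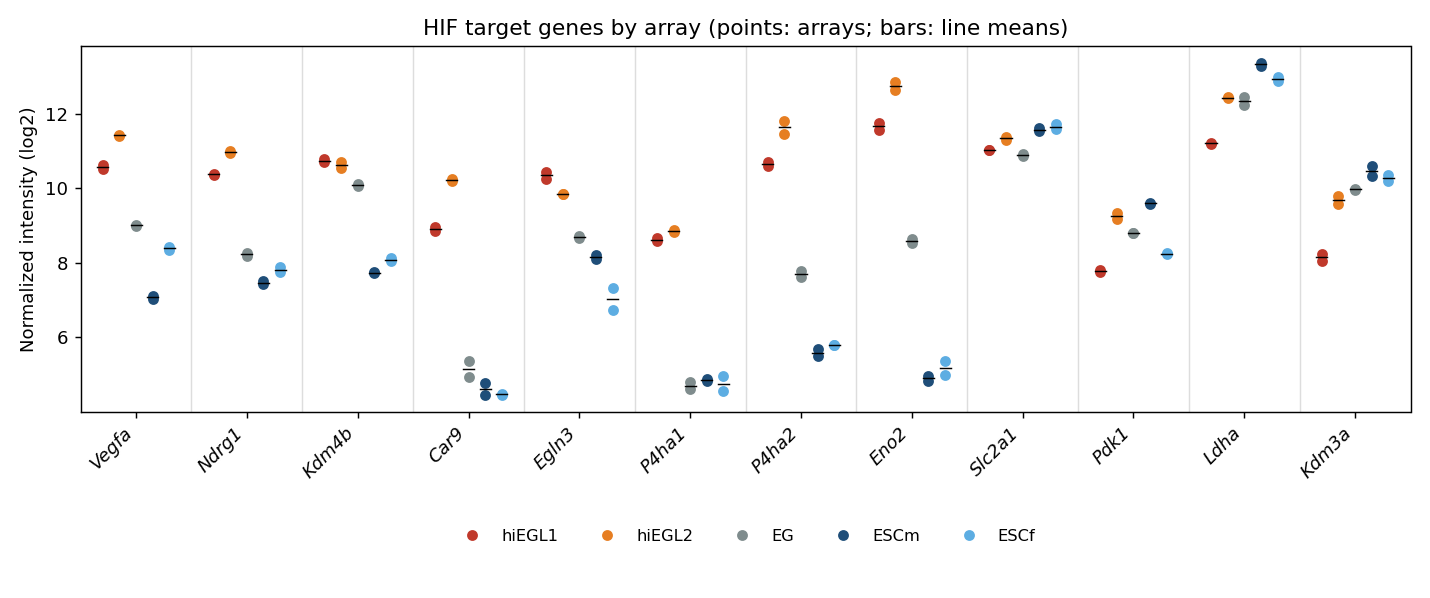
Normalized log2 intensity (y axis) of HIF target and glycolysis genes on each hiEGL, EG and ESC array; points are arrays and bars line means. All hiEGL points lie above all EG and ESC points for Vegfa, Ndrg1, Kdm4b, Car9, Egln3, P4ha1, P4ha2 and Eno2, and Pdk1, Ldha and Kdm3a differ between hiEGL1 and hiEGL2.

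Of 19 glycolysis genes 6 were higher (31.6%) and 10 lower (52.6%), where 45.4% of all genes rose and 38.8% fell. Their median was -0.38. Eno2, an enolase, read 11.74, 11.57, 12.64 and 12.83 in hiEGL, 8.63 and 8.53 in EG, and 4.83, 4.97, 5.36 and 4.98 in ESC and rose by 7.16; ESC detected it on 1 array. The phosphofructokinase subunits differed in direction: Pfkl rose by 1.82 and Pfkm by 2.47, and Pfkp fell by 1.28. Of the HIF pathway itself 1 of 6 genes rose and 4 fell. Hif1a was undetected in hiEGL and EG and at least 1.59-fold lower than in ESC, and its partner Arnt and the coactivator Ep300 were at least 1.41-fold and 7.45-fold lower. Epas1 (HIF2 alpha) was undetected in hiEGL and detected on all EG and ESC arrays, with 4.91, 4.76, 4.47 and 4.33 in hiEGL, 6.44 and 6.56 in EG and 5.66, 5.46, 5.39 and 5.77 in ESC, and no fold is given.

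Oxidative phosphorylation genes fell in 39 of 48 cases (81.2%, against 38.8% of all genes) and rose in 8. Their median was -1.19 against ESC and -0.37 against EG. Complex I subunits Ndufc1 and Ndufa5 differed by -4.74 and -4.21 from ESC and by -1.27 and -0.72 from EG. Atp5j of the ATP synthase and Cox6a1 of complex IV differed by -2.57 and -2.39 from ESC, and by -0.42 and -0.41 from EG.

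DNA replication genes fell in 20 of 27 cases (74.1%, against 38.8% of all genes) and rose in 4. Against EG 24 were lower, where 33.4% of all genes were lower. Tyms, which makes thymidylate, differed by -4.48, Mcm6 of the replicative helicase by -1.25 and Tk1, thymidine kinase, by -1.12. Mcm6 was not called with the line as a random block. Rpa2, a single-strand binding subunit, was undetected in hiEGL and at least 8.72-fold lower. Mitosis genes fell in 10 of 18 cases and rose in 6, against 38.8% and 45.4% of all genes. Of the 18, 16 were lower than in EG, where 33.4% of all genes were lower. Birc5 (survivin) read 6.29, 6.19, 7.06 and 7.10 in hiEGL, 8.61 and 8.46 in EG, and 10.54, 10.44, 10.84 and 10.93 in ESC and differed by -4.03 from ESC, Cdk1 by -2.74 and Mad2l1, a spindle checkpoint protein, by -2.68. Cdca8, a partner of survivin, was at least 8.6-fold lower. Inhibitors of cyclin-dependent kinases rose in 5 of 7 cases and fell in 1, where 45.4% of all genes rose and 38.8% fell. Cdkn1a (p21) read 10.78, 10.87, 10.82 and 10.74 in hiEGL, 9.09 and 9.09 in EG, and 8.31, 8.08, 8.65 and 8.58 in ESC and rose by 2.40, and Cdkn2c was at least 4.44-fold higher. Cdkn2a was detected on no hiEGL array and at least 1.54-fold lower, with overlapping arrays.

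TGF-beta and BMP pathway genes rose in 17 of 23 cases (73.9%, against 45.4% of all genes) and fell in 2. Against EG 17 rose and 5 fell, where 28.4% of all genes rose and 33.4% fell. The receptor Tgfbr1 rose by 1.13, and Id2, a BMP-induced inhibitor, was at least 5.7-fold lower. FGF and ERK genes fell in 8 of 14 cases (57.1%, against 38.8% of all genes) and rose in 3. Against EG 6 fell and 2 rose, where 33.4% of all genes fell and 28.4% rose. Fgf4, the autocrine FGF of stem cells, and Fgf17 were undetected in hiEGL and at least 4.36-fold and 5.48-fold lower, Etv4, an FGF target, fell by 2.90, and Fgf10, a mesenchymal FGF, rose by 2.73.

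LIF signalling keeps mouse stem cells undifferentiated through Stat3. Stat3 read 6.69, 6.77, 6.03 and 6.11 in hiEGL, 5.27 and 5.10 in EG, and 9.51, 9.49, 8.95 and 9.10 in ESC, a difference of -2.87 from ESC; it was undetected in EG. Osmr, a receptor of the LIF receptor family, rose by 3.49. Socs3, the feedback inhibitor of this pathway, read 10.30, 10.32, 11.57 and 11.50 in hiEGL, 10.99 and 10.93 in EG, and 10.03, 9.89, 9.09 and 9.21 in ESC. Its difference from ESC was 1.37, not called with the line as a random block or without hiEGL2, and from EG -0.04, not called. Pim1, a kinase and Stat3 target, was on all ESC arrays and no hiEGL or EG array, at least 2.03-fold lower; a second probe, undetected in hiEGL and on 1 ESC array, had the other sign. In the WNT list 10 of 15 rose (66.7%, against 45.4% of all genes) and 5 fell. Wnt5a, a ligand of mesenchyme, was at least 12.8-fold higher. Tcf7l1 (Tcf3), a repressor of pluripotency genes, fell by 1.57 with both probes lower. Ctnnb1 (beta-catenin) read 11.57, 11.57, 12.10 and 12.19 in hiEGL, 12.61 and 12.54 in EG, and 12.25, 12.21, 12.03 and 12.06 in ESC. Its groups overlapped on this probe, with a difference of -0.28, against -2.17 on the other; the first was 0.01 and not called without hiEGL1. Dkk3, a secreted protein of the Dickkopf family, read 7.10, 7.02, 5.50 and 5.63 in hiEGL, 7.50 and 7.77 in EG, and 5.54, 5.61, 5.80 and 6.02 in ESC. It was detected in hiEGL1 and not in hiEGL2, and its difference of 0.57 was -0.18 without hiEGL1. Neither Ctnnb1 nor Dkk3 was called with the line as a random block.

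Immediate early genes are switched on within minutes by growth factors or stress. They rose in 12 of 16 cases (75%, against 45.4% of all genes) and fell in 4. Their median was 2.90 against ESC and 2.93 against EG. Ier3 read 13.92, 13.80, 14.21 and 14.27 in hiEGL, 11.25 and 11.37 in EG, and 7.48, 7.43, 7.15 and 7.29 in ESC. Egr2 was on all hiEGL arrays and no EG or ESC array, at least 20.6-fold higher, and Fosb rose by 4.71. Klf6 fell by 1.74. Chaperones fell in 13 of 22 cases (59.1%, against 38.8% of all genes) and rose in 6, with a median of -1.22. Against EG 10 fell and 6 rose (33.4% and 28.4% of all genes), with a median of -0.13. The differences from ESC were -4.09 for Hsp90aa1, -2.005 for Tcp1 and -1.11 for Hspd1, and Calr, a lectin chaperone, was undetected in hiEGL and EG and at least 12.9-fold lower than in ESC. ATF4 targets fell in 13 of 17 cases (76.5%, against 38.8% of all genes) and rose in 2. Against EG 9 fell and 3 rose (33.4% and 28.4% of all genes). Atf4, the factor itself, was on all ESC arrays and no hiEGL or EG array, at least 28.3-fold lower in hiEGL than in ESC. Asns (asparagine synthetase) differed by -0.44 with overlapping arrays and no call with the line as a random block, and Ddit3 and Vldlr rose by 2.06 and 2.83.

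**Figure D5:**
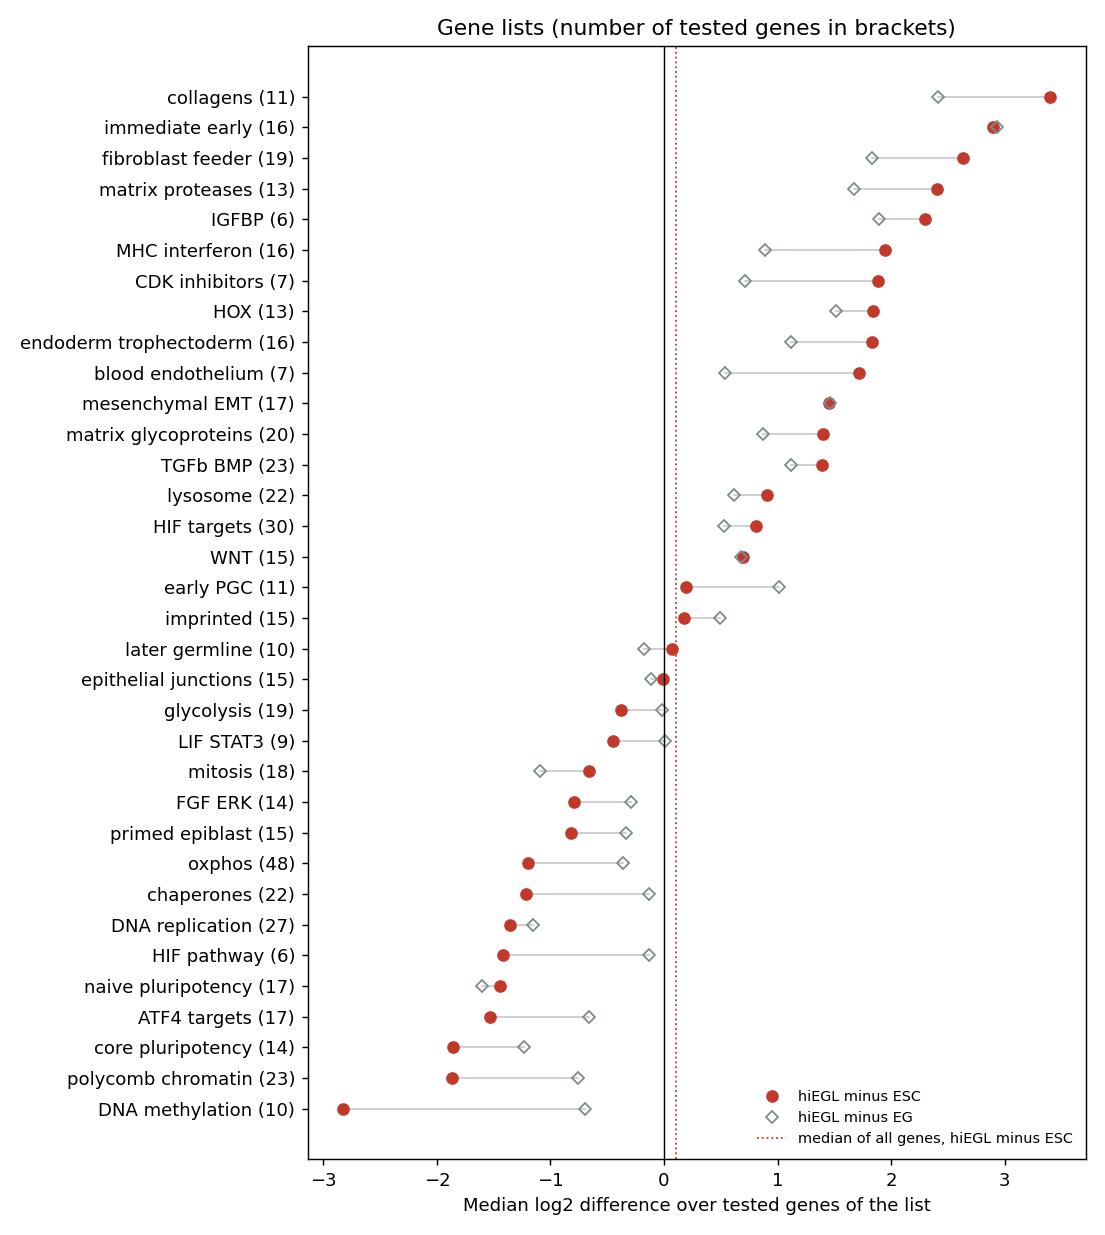
Median log2 difference (x axis) over the tested genes of each list, with their number in brackets, for hiEGL minus ESC (filled) and hiEGL minus EG (open); the dotted line is the median of all genes. Collagens, immediate early genes and fibroblast markers have the highest medians against ESC among the lists drawn, those with 6 or more tested genes, and DNA methylation genes the lowest; oxidative phosphorylation, chaperone and DNA methylation genes lie closer to 0 against EG.

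With the second brightest probe of each gene the medians were -1.31 for early germ cell, -1.22 for later germline, -0.36 for imprinted, -0.32 for insulin-like growth factor binding protein, -0.06 for WNT, 0.33 for glycolysis and 0.14 for ATF4 genes, opposite in sign to those of the brightest probe. With undetected groups at their bounds the median was -1.24 for chromatin, -0.25 for HIF pathway, -0.14 for FGF and ERK, -1.04 for ATF4, 1.97 for fibroblast, 2.35 for immediate early and 1.39 for antigen presentation genes. Over all genes with a probe, detected or not, it was 1.86 for collagens, 1.78 for immediate early genes and -0.10 for the HIF pathway. Other lists moved too under this setting. Over the tested genes the median was 1.94 for antigen presentation, 2.64 for fibroblast, 1.72 for blood and endothelial and 3.35 for gonadal somatic genes. Over all with a probe these were 1.11, 2.02, 0.56 and 0.10.

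The largest falls among genes with agreeing probes, detected on all 8 arrays with no overlap between groups, were those of Nop10, Ndufc1, Lmnb1, Apex1, Eef2, Psmb7, Dnmt3b, Slc25a3, Eef1b2 and Rpl31. Nop10, a protein of small nucleolar RNPs, read 6.35, 6.51, 6.47 and 6.44 in hiEGL, 8.07 and 8.04 in EG, and 11.83, 11.87, 12.09 and 11.88 in ESC, with differences of -5.47 from ESC and -1.61 from EG. Eef2, the translocation factor of protein synthesis, read 6.67, 6.74, 6.41 and 6.51 in hiEGL, 5.12 and 5.14 in EG, and 11.05, 11.17, 11.14 and 11.24 in ESC, below ESC and above EG, where it was undetected. Rpl31, a ribosomal protein, read 9.22, 9.27, 9.11 and 9.21 in hiEGL, 9.79 and 9.78 in EG, and 13.44, 13.47, 13.55 and 13.51 in ESC, with differences of -4.29 from ESC and -0.58 from EG.

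The others were Lmnb1 (nuclear lamina), Apex1 (base excision repair), Psmb7 (proteasome), Slc25a3 (mitochondrial phosphate carrier) and Eef1b2 (translation), with differences from ESC of -4.64, -4.59, -4.55, -4.37 and -4.33, and from EG of -2.42, -2.41, -0.53, -1.06 and -0.92. On a second probe, the differences of Nop10, Psmb7 and Slc25a3 from EG had the other sign. Among genes with agreeing probes, the largest bounds downward besides that of Ezh2 were those of Nhp2 (small nucleolar RNPs), Snrpd1 (spliceosome), Hnrnpa1 and Hnrnpa2b1 (RNA binding) and Adh5 (formaldehyde oxidation). They were at least 78.2-fold, 51.4-fold, 49.3-fold, 38.3-fold and 23.4-fold lower in hiEGL than in ESC. Except for Nhp2, which was on both EG arrays, these were undetected in EG as well.

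The lines within each cell type also differed. Between hiEGL2 and hiEGL1 30% of genes were called, and between ESCf and ESCm 19.3%. A difference called in all 4 pairs of an hiEGL and an ESC line was found for 34.5% of genes as higher and 27.9% as lower. Eif2s3y, a gene of the Y chromosome, read 8.39, 8.32, 8.38 and 8.33 in hiEGL, 8.55 and 8.62 in EG, and 9.02, 8.94, 4.41 and 4.34 in ESC: the male ESCm and both hiEGL lines were high and the female ESCf low, as the ESC titles say. Its difference was not called with the line as a random block. Xist, the RNA that coats the inactive X chromosome, was detected on 1 hiEGL array and no EG or ESC array.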

How the data were processed

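Total RNA of 14 C57BL mouse samples, in 8 groups of 1 or 2 arrays, was measured on Illumina bead arrays. Per the file headers, the main deposited table gives signal intensity before normalization and a detection p-value, probe by probe. The authors' own normalized log2 values, also deposited, served to check the results. BeadStudio 3.2, RMA and lumi appear in the tool list, per the submitters' processing notes, without order or settings. The genome build is not given in the sources used here. Per the labels' protocols 2 amplifications are described for all samples, with no word on which array received which.

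Of 25697 probes 23978 had 1 gene and 1719 none. Background was corrected with a normal-exponential model and an offset of 16, followed by quantile normalization and log2 (neqc, limma 3.58.1, R 4.3.3). Each gene took its probe of highest mean over the arrays, and 9054 genes had that probe detected (p-value under 0.01) on 2 or more arrays. A mean per group was fitted with limma to all 14 arrays, lines were weighted equally, and variances were moderated with a trend. Promoters were searched and figures drawn with Python 3.11.15 and matplotlib 3.10.9. The test was checked on simulated data without differences between the lines of a cell type. That check does not cover false calls from such differences. The number of arrays limits the precision.

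Named genes were the 10 largest rises and falls with agreeing probes, the 6 largest bounds each way, fixed genes and the 4 largest called changes of each list, agreeing probes first. Of these, Prdm1 and H19 were not tested. Gdf3, L1td1, P4ha1, P4ha2, Sall4 and Utf1 were added after their values were seen. Members and lists were chosen with earlier results of these data known. Replicate numbers did not pair samples, since deviations of same-numbered arrays correlated at -0.027 to 0.018 between lines. Alternatives changed the background correction, scaling, filter, probe choice, block and arrays. Epiblast stem cells and primordial germ cells entered the fit only.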

Additional observations from a re-analysis of the deposited data

Results flagged for a closer look

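The hiEGL lines differed from each other in 23 of 185 named genes by at least 2-fold, each called by limma over all genes (hiEGL2 minus hiEGL1, 2 arrays each, largest adjusted p = 0.0471), which means that their differences from ESC also differed between the lines. Higher in hiEGL2 were Dnmt3l (2.32 on the log2 scale), the HIF targets Kdm3a (1.55), Pdk1 (1.48), Car9 (1.31), Ldha (1.23) and Eno2 (1.08), and the signalling genes Osmr (1.43), Socs3 (1.22), Egr2 (1.37), Tnfaip2 (1.24) and Etv4 (1.05). Klf4 (1.23), Uhrf1 (1.20) and Dppa3 (1.03) were also higher in hiEGL2, as were Rin2 (1.14), Col16a1 (1.06) and Pdzrn3 (1.04). Lower in hiEGL2 were Lin28a (-2.07), Nanos3 (-2.02), Dkk3 (-1.50), Laptm5 (-1.22), Cdkn2a (-1.12) and Snrpn (-1.06). Cdkn2a was below background on all 4 hiEGL arrays.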

How the results depend on the processing

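Of 185 named genes, the direction and call against ESC held for all under the authors' normalized values, no background correction, no detection filter, the fit of 8 arrays alone and each array left out. Counts with 1 array left out were 7335 to 7389 genes called (3977 to 4011 higher, 3355 to 3389 lower), 383 to 391 with agreeing probes higher, 778 to 789 lower and 426 to 442 opposite, and 2908 to 2955 higher and 2321 to 2389 lower in all 4 pairs of lines. Median scaling moved the median of all genes to 0.43 and left 283 genes with opposite probes; Sall4 was then -0.16 and Cyp11a1 0.48. With the second brightest probe, over 2370 genes, 1928 were called (627 higher, 1301 lower; 443 and 958 in all 4 pairs), a smaller number of genes tested, and 32.5% of calls were higher in place of 53.9%; Sall4 was -3.92, Tfap2c -1.45, Lyz2 -0.93 and Pim1 0.44, and against EG Tcf7l1 was 0.037, Lyz2 -0.11, Pfkl -0.26, Pfkp 0.068, Nop10 0.41, Psmb7 0.51 and Slc25a3 0.066. With the mean of probes Sall4 was -1.89. With the line as a random block (correlation 0.64) 286 genes had opposite probes and 5953 were called; Klf4, Pdk1, Mcm6, Asns, Sall4, H2-T23, Eif2s3y, Snrpn, Socs3, Dkk3, Ctnnb1, Cyp11a1 and Xist were no longer called. Asking for 2-fold left 4955 called, 2146 lower, 502 agreeing lower, 140 opposite and 1603 lower in all pairs. Without hiEGL1 Nanos3 was -0.81, Dkk3 -0.18, Ctnnb1 0.013, Pdk1 0.34 (0.46 against EG) and Ldha 0.10 against EG; without hiEGL2 Snrpn was 0.0081 against EG; without ESCm Pdk1 was 0.28; without ESCf Nanos3 was -0.65 and Eif2s3y -0.63. The replicate numbers do not pair the samples, and with them as a block 7617 genes were called in place of 7622. Differences from EG were not followed for genes below background in both hiEGL and EG. The cause of these changes was not tested. On hiEGL arrays a lower share of probes stood above background, which limits what falls in dim genes can show; 448 genes were below background on all 8 arrays, and 163 of them were called.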
